A study of Mus musculus with 6 samples.

Results

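The epidermal differentiation complex (EDC) is a gene cluster on mouse chromosome 3 whose members build the outer layers of the skin. Its genes were examined in mammary tumors and adjacent normal mammary glands of BK5.ATF3 transgenic mice. Members were chosen by name, although earlier results of these data were known when the rule was set. The rule takes gene symbols that begin with *Sprr*, *Lce* or *S100a* and a digit, together with *Lor*, *Ivl*, *Flg2*, *Hrnr*, *Rptn*, *Tchh*, *Crnn*, *Prr9*, *Crct1* and *Pglyrp3*, without *S100a8* and *S100a9*. This rule found 51 of the 15280 genes in the expression table. They were split by name into 10 S100 genes, 5 S100-fused genes and 35 cornified envelope precursors, with *Pglyrp3* in no class. *Flg* and *Lelp1*, which the rule also names, were not analysed here.

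RNA-Seq data came from 3 parous transgenic females that had each raised 1 litter. The tumors arose at 6 to 12 months of age and were taken at a length of 1.5 cm, and from each mouse a single tumor (T11035, T11640 or T9232) was compared with its own adjacent gland (M11035, M11640 or M9232), so that n = 3 for each tissue. The transgene drives activating transcription factor 3 (ATF3) from the bovine keratin 5 promoter, which is active in basal epithelial cells. The glands carry it too, so the comparison is of tumor with gland and no wild-type tissue is part of it. *Atf3* itself was at 11.7 ± 9.58 CPM in the glands and 17.0 ± 3.18 CPM in the tumors (SD, n = 3), a difference that did not pass the test (adjusted p = 0.223). By mouse, it was at 13.4 CPM in T11035 against 4.47 in M11035 and at 18.3 CPM in T11640 against 8.09 in M11640. In T9232 it was at 19.3 CPM, against 22.6 in M9232. CPM are fragments per 1000000 of an effective library size, and the libraries held between 4750989 and 7806908 fragments on genes. Differentially expressed genes (DEGs) were called with limma on log2(CPM + 0.5) at an adjusted p of at most 0.05, over all 15280 genes, and a log2 fold change of at least 1 in either direction.

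When a keratinocyte of the epidermis reaches the end of its life, it replaces its plasma membrane with the cornified envelope, a shell of proteins that transglutaminases cross-link to one another. Involucrin (*Ivl*), loricrin (*Lor*), the small proline-rich proteins (*Sprr*) and the late cornified envelope proteins (*Lce*) are substrates of this reaction. The S100-fused proteins join an S100 calcium-binding domain to long repeats and lie between keratin filaments and envelope, in the epidermis, the tongue and the hair follicle. The S100 proteins are small calcium sensors found in many cell types, fat and stroma included. A mammary gland is a simple epithelium within a fat pad and does not cornify.

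Nearly all members in the table were higher in the tumors. Of the 51 members, 48 were upregulated, 1 was downregulated (*S100a1*) and 2 were not called (*S100a10* and *S100a13*). Across all genes tested, 14.5% were upregulated and 13.7% downregulated. In 49 members all 3 tumors lay above all 3 glands and in the other 2 all tumors lay below, whereas 27.6% and 26.3% of all genes separated in those directions. The median log2 fold change of the members was 3.89, and that of all genes was -0.00. Because 23 members had no fragment in any gland and 11 had between 1 and 3 in all glands together, a fitted fold change understates their difference. With these genes set to their bound or their ratio of pooled fragments, the median of the members was 6.09. Genes with few fragments over all samples had been removed by the authors. Members this low in the glands were therefore in the table only through their tumor fragments and could hardly come out lower. The count of upregulated members carries this limit. In whole tissue, a change in the number of cells of a type and a change in RNA per cell cannot be told apart.

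Summed over the 51 members, the level was 255 ± 50.1 CPM in the glands and 5331 ± 1511 CPM in the tumors. The sums were 263 CPM in M11035, 301 CPM in M11640 and 202 CPM in M9232, against 3671 CPM in T11035, 6624 CPM in T11640 and 5699 CPM in T9232. The 2 ranges were far apart. In the glands nearly the whole sum came from S100 genes (247 ± 50.8 CPM), while the S100-fused genes added 4.72 ± 2.44 CPM and the precursors 2.95 ± 0.972 CPM. In the tumors the S100-fused genes gave the most (2739 ± 613 CPM), followed by the precursors (1751 ± 905 CPM) and the S100 genes (809 ± 226 CPM). These sums are not scaled to transcript length, and *Hrnr*, *Tchh* and *Rptn* have long transcripts (11187, 5823 and 4146 bases). Per kb of transcript these 3 ranked only 15, 7 and 5 in the tumors. The order of the classes thus holds for CPM only.

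**Figure D1:**
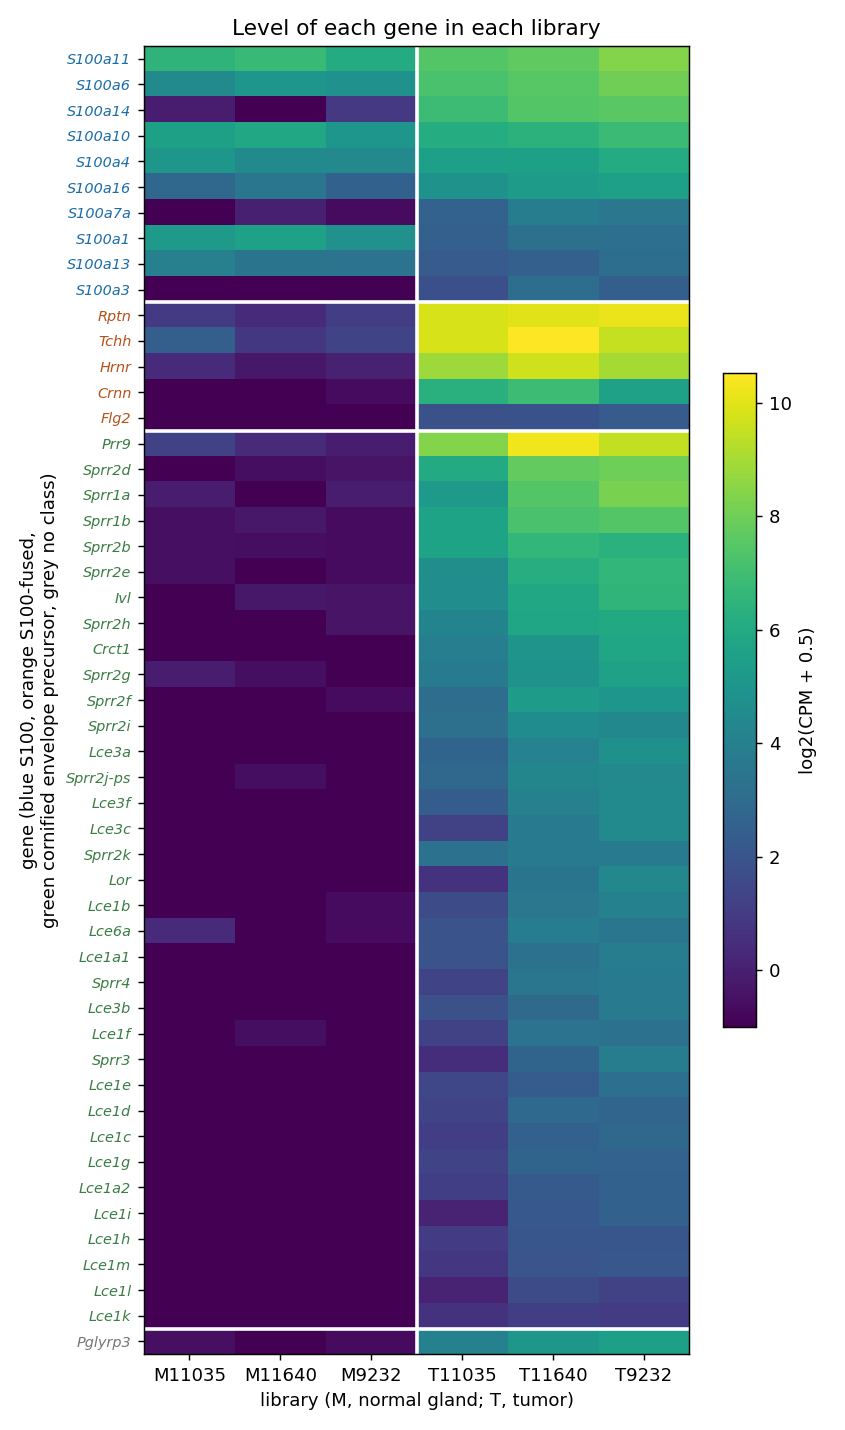
Level of each of the 51 genes (rows, grouped by class and ordered by tumor mean) in each library (columns, 3 normal glands and 3 tumors), as log2(CPM + 0.5) on the color scale. The precursors and S100-fused genes are dark in every gland and bright in the tumors, T11035 being the lowest tumor for 49 of 51 genes, and *S100a1* and *S100a13* run the other way.

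The 5 S100-fused genes were all upregulated, with a median log2 fold change of 8.37 (9.10 with *Crnn* at its pooled ratio and *Flg2* at its bound). *Rptn* encodes repetin and lies on the plus strand of chromosome 3 from 93197621 to 93203364 (mm9). It stood at 1.42, 0.83 and 1.64 CPM in M11035, M11640 and M9232 and at 907, 1024 and 1167 CPM in T11035, T11640 and T9232. The tumors differed little among themselves for this gene, by 1.29-fold between the highest and the lowest. Its log2 fold change of 9.19 ± 0.21 (SE, adjusted p = 1.91e-07) was the largest fitted value of the 51 members.

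*Hrnr* encodes hornerin, a long repeat protein of the stratum corneum. It was at 0.81, 0.33 and 0.55 CPM in the glands and at 455, 832 and 494 CPM in the tumors, in the same order of mice (log2 fold change 9.10 ± 0.27, adjusted p = 4.62e-07). *Tchh* encodes trichohyalin, which hardens the inner root sheath and medulla of the hair. Its level was 5.08, 1.32 and 2.05 CPM in the glands and 893, 1468 and 721 CPM in the tumors (log2 fold change 8.37 ± 0.41, adjusted p = 3.31e-06). Both genes were highest in T11640, and no gland came near any tumor. *Rptn*, *Tchh* and *Hrnr* made up 96.9% of the tumor mean of the class.

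*Crnn* encodes cornulin, best known from the esophagus. It had 1 fragment in the 3 glands together and 79.5, 117 and 48.0 CPM in T11035, T11640 and T9232. The pooled ratio was 1524-fold, with an exact 95% counting interval of 273 to 60222 (adjusted p = 2.60e-06), so its size is poorly bounded from above. *Flg2* encodes filaggrin 2 and was the weakest gene of the class. With no fragment in any gland and 3.16, 3.28 and 4.50 CPM in the tumors, it was at least 22.3-fold higher (adjusted p = 1.69e-04). The counting intervals and bounds cover counting error only, and a bound is set against 3 fragments over the 3 glands pooled.

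All 35 cornified envelope precursors were upregulated. Their highest adjusted p was 0.0101, and the highest level of any of them in any gland was 1.83 CPM. The median log2 fold change was 4.04, or 6.23 with the low genes at their bound or pooled ratio, and 21 of the 35 had no fragment in any gland. These 21 were in the table only through their tumor fragments, so their direction was set in advance.

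The most abundant precursor was *Prr9*, a proline-rich gene between *Lor* and the *Sprr2* genes (minus strand, chromosome 3 from 91926126 to 91927869, mm9). It was at 1.83, 0.83 and 0.41 CPM in M11035, M11640 and M9232 and at 332, 1236 and 701 CPM in T11035, T11640 and T9232 (log2 fold change 8.87 ± 0.48, adjusted p = 5.43e-06). T11640 thus stood well above the other tumors, and even T11035 was far above all glands.

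The *Sprr* genes encode cross-bridging proteins that are induced when squamous epithelia are stressed or differentiate. All 13 were upregulated, and their sum was 1.31 ± 0.276 CPM in the glands and 771 ± 424 CPM in the tumors. The 9 *Sprr2* rows, which include the pseudogene *Sprr2j-ps*, gave 60.3% of the *Sprr* tumor mean. Their tumor means ran from 11.8 CPM for *Sprr2k* to 177 CPM for *Sprr2d*. *Sprr2d* was at 0, 0.17 and 0.27 CPM in the glands and at 66.4, 214 and 249 CPM in T11035, T11640 and T9232, a pooled ratio of 1131-fold (95% counting interval 387 to 5489, adjusted p = 7.62e-06).

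*Sprr1a* was at 0.41, 0 and 0.41 CPM in the glands and at 35.5, 173 and 294 CPM in T11035, T11640 and T9232 (log2 fold change 7.36 ± 0.68, adjusted p = 6.94e-05). *Sprr1b* was at 0.20, 0.33 and 0.14 CPM in the glands and at 51.5, 146 and 171 CPM in the tumors (log2 fold change 7.25 ± 0.42, adjusted p = 7.05e-06). For both genes T11035 was the lowest tumor and lay above every gland. *Sprr3* and *Sprr4* had no fragment in the glands and were at least 44.3-fold and at least 57.3-fold higher in the tumors.

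*Ivl* encodes involucrin, the early scaffold of the envelope (minus strand, chromosome 3 from 92374834 to 92377637, mm9). It was at 0, 0.33 and 0.27 CPM in M11035, M11640 and M9232 and at 24.7, 58.1 and 91.4 CPM in T11035, T11640 and T9232 (log2 fold change 6.23 ± 0.46, adjusted p = 2.16e-05). *Lor* encodes loricrin, the bulk protein of the mature epidermal envelope (minus strand, chromosome 3 from 91884197 to 91887064, mm9). It had no fragment in any gland and was at 1.12, 10.5 and 20.1 CPM in T11035, T11640 and T9232, at least 68.1-fold higher (adjusted p = 0.00560). The level in T11035 rests on 6 fragments, against 80 in T11640 and 134 in T9232, and *Lor* had the widest spread between tumors of all members, 18.0-fold. *Crct1* had no fragment in any gland and was at 14.9, 30.4 and 54.8 CPM in the tumors, at least 210-fold higher (adjusted p = 2.26e-05).

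The *Lce* genes encode small cysteine-rich proteins that are added to the envelope late. All 13 *Lce1* genes were upregulated, although their levels were low: tumor means ran from 1.44 CPM for *Lce1k* to 10.1 CPM for *Lce1b*, and 11 of the 13 had no fragment in any gland. *Lce1k* and *Lce1l* fell below a mean of 1 CPM over the 6 libraries, the only members to do so. *Lce1k* was at least 8.98-fold and *Lce1l* at least 11.1-fold higher. The 4 *Lce3* genes, which in human skin are linked to barrier repair, had no fragment in any gland and tumor means from 7.74 to 16.5 CPM. *Lce3a* was the highest, at 6.14, 16.6 and 26.8 CPM in T11035, T11640 and T9232. *Lce6a* was at 0.81, 0 and 0.14 CPM in the glands and at 3.35, 13.9 and 11.1 CPM in the tumors (log2 fold change 3.53 ± 0.56, adjusted p = 0.00135).

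Some of these genes are close copies. Of the 76-base stretches of the transcript, the length of 1 read, 38.5% were shared with another gene for *Lce3f*, 28.0% for *Lce3c* and 13.4% for *Lce1e*. Fragments from such stretches could be placed on either copy or discarded, so the levels of single *Lce* genes are less certain than their sums. In the tumors the sum was 61.8 ± 34.8 CPM over *Lce1* and 50.9 ± 33.6 CPM over *Lce3*. In the glands it was 0.10 ± 0.09 CPM over *Lce1*, and *Lce3* was not detected. *Sprr2d*, *Sprr1a*, *Sprr1b*, *Prr9*, *Ivl* and *Lor* shared under 1% of theirs.

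The S100 genes differed from the other classes in that most were already present in the glands. Of the 10, 7 were upregulated, 1 fell and 2 were not called, and the median log2 fold change was 1.81. *S100a6* encodes a calcium sensor of proliferating epithelial cells and fibroblasts. It was at 22.2, 32.4 and 28.3 CPM in M11035, M11640 and M9232 and at 150, 185 and 263 CPM in T11035, T11640 and T9232 (log2 fold change 2.81 ± 0.23, adjusted p = 4.03e-05). *S100a11*, a partner of annexin A1, was at 89.1, 112 and 68.3 CPM in the glands and at 174, 206 and 338 CPM in the tumors (log2 fold change 1.38 ± 0.27, adjusted p = 0.00384). For both genes the lowest tumor was above the highest gland. *S100a11* shared 18.8% of its stretches with *Gm7665*.

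*S100a14*, *S100a3* and *S100a7a* were, like the envelope genes, at or near 0 in the glands. *S100a14*, an epithelial member, was at 0.41, 0 and 1.37 CPM in the glands and at 119, 175 and 188 CPM in the tumors (log2 fold change 7.38 ± 0.44, adjusted p = 7.71e-06). *S100a3*, known from the hair cuticle, had no fragment in any gland and 2.98, 8.52 and 5.09 CPM in the tumors, at least 35.6-fold higher (adjusted p = 2.46e-04). *S100a7a*, the mouse psoriasin gene, was at 0, 0.50 and 0.14 CPM in the glands and at 5.58, 13.9 and 11.2 CPM in the tumors (log2 fold change 3.89 ± 0.42, adjusted p = 1.59e-04). *S100a16* was at 6.91, 10.9 and 5.47 CPM in the glands and at 28.8, 40.1 and 44.5 CPM in the tumors (log2 fold change 2.24 ± 0.28, adjusted p = 3.58e-04).

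*S100a4* and *S100a10* lay close to the fold threshold. *S100a4*, known from fibroblasts and motile cells, was at 34.2, 22.1 and 20.8 CPM in the glands and at 44.3, 45.6 and 68.5 CPM in the tumors (log2 fold change 1.03 ± 0.25, adjusted p = 0.0107). Its call was lost without M11640 (0.94), M9232 (0.90) or T9232 (0.83), each time by the fold threshold alone. *S100a10*, which pairs with annexin A2 at the plasma membrane, was at 46.6, 60.0 and 32.6 CPM in the glands and at 70.3, 84.7 and 115 CPM in the tumors. Its log2 fold change of 0.96 ± 0.26 (adjusted p = 0.0171) missed the fold threshold and passed it without M11640 (1.17) or T11035 (1.12).

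*S100a1* and *S100a13* were lower in the tumors. *S100a1*, a calcium sensor best known from muscle, lies at the end of the cluster on the minus strand of chromosome 3 from 90314956 to 90318314 (mm9). It was at 36.6, 48.2 and 27.8 CPM in M11035, M11640 and M9232 and at 5.21, 9.17 and 8.69 CPM in T11035, T11640 and T9232, and the groups did not overlap. The log2 fold change was -2.22 ± 0.28 (adjusted p = 3.85e-04). *S100a13*, its direct neighbor, which takes part in the release of growth factors without a signal peptide, was at 15.9, 10.2 and 9.99 CPM in the glands and at 4.47, 5.24 and 8.39 CPM in the tumors. Its log2 fold change of -0.95 ± 0.30 (adjusted p = 0.0310) missed the fold threshold and passed it without M11640 (-1.05), M9232 (-1.07) or T9232 (-1.20). All 8 adipocyte markers fell alongside, from a sum of 4915 ± 1580 CPM in the glands to 165 ± 32.4 CPM in the tumors, with *Adipoq* at 353, 587 and 299 CPM in the glands and at 3.72, 4.06 and 1.05 CPM in the tumors. The part of the fat pad in the lower levels of these S100 genes was not tested.

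*Pglyrp3* encodes a secreted antibacterial peptidoglycan recognition protein. It was at 0.20, 0 and 0.14 CPM in the glands and at 16.2, 33.3 and 44.4 CPM in the tumors, a pooled ratio of 296-fold (95% counting interval 81.6 to 2449, adjusted p = 1.61e-05).

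Levels of different genes were compared per kb of transcript, for the 50 members with a position and transcript in the annotation. In the tumors *Prr9* ranked the highest, at 639 ± 384 CPM per kb, followed by *S100a11* (469 ± 170), *S100a6* (277 ± 80.8), *Sprr2d* (259 ± 142), *Rptn* (249 ± 31.4), *Sprr1a* (209 ± 161) and *Tchh* (176 ± 67.2). The ranges of each of these genes and the next over the 3 tumors overlapped. *Hrnr*, the longest transcript of the set, was at 53.1 ± 18.6 CPM per kb, *Ivl* at 30.7 ± 17.6 and *Lor* at 5.95 ± 5.34. *Flg2* was the lowest of the 50, at 0.52 ± 0.11 CPM per kb. *Lor* and *Flg2*, whose proteins belong to the mature epidermal envelope and the granular layer, ranked 43 and 50, below the *Sprr* genes *Sprr2d*, *Sprr1a*, *Sprr1b* and *Sprr2b*. *Flg* was not among the genes ranked. Stretches repeated within a single transcript were not checked, so the ranks of long repeat genes such as *Hrnr* and *Flg2* are less certain. In the glands the order was led by *S100a11* (175 CPM per kb), *S100a10* (67.7), *S100a1* (55.4), *S100a4* (51.6) and *S100a6* (38.4), and no gene outside the S100 class reached 1 CPM per kb.

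**Figure D2:**
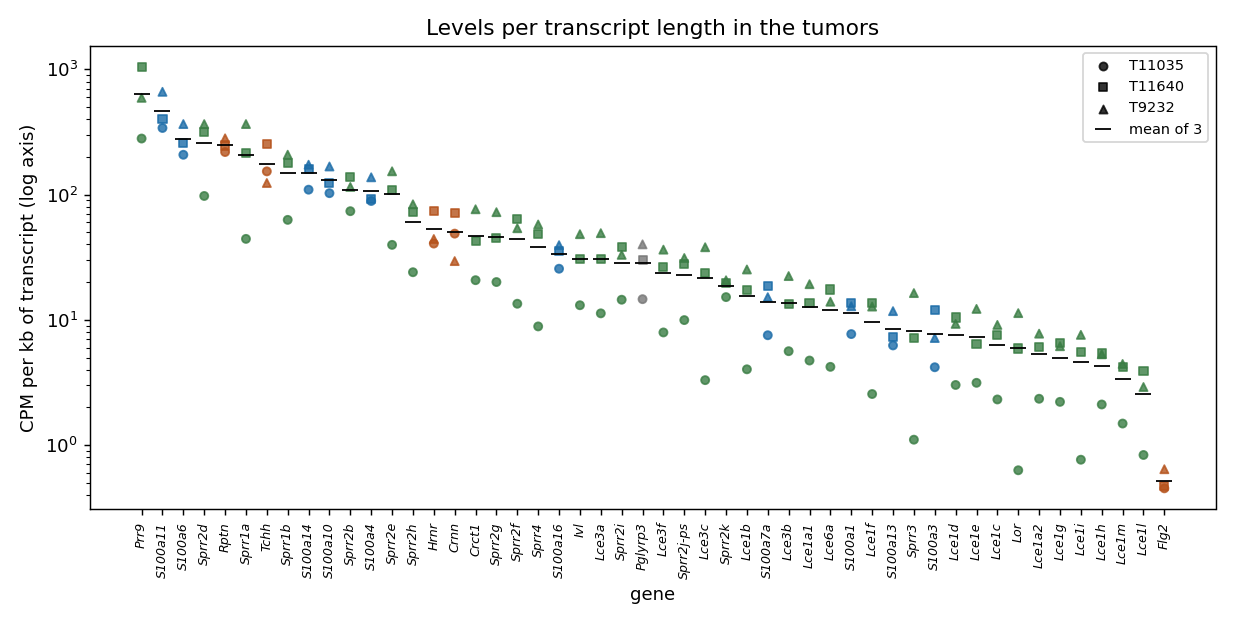
Levels of 50 members in the tumors as CPM per kb of transcript (log axis), with each gene on the horizontal axis, a marker for each tumor, colors for the classes (blue S100, orange S100-fused, green precursor, grey *Pglyrp3*) and a dash for the mean of 3. *Prr9* is the highest at 639 and *Flg2* the lowest at 0.52, and the circles of T11035 fall away from the other tumors in the green genes.

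The 3 tumors were not alike. T11035 was the lowest tumor in 49 of the 51 members, all 35 precursors and all 10 S100 genes among them, whereas it was the lowest in 40.4% of all genes. The other 2 members were *Tchh* and *Crnn*, which were lowest in T9232. T9232 was the highest tumor in 34 members and T11640 in 17, and T11035 in none. The median ratio of T9232 to T11035 was 3.69 for the precursors, 1.69 for the S100 genes and 1.09 for the S100-fused genes, against 1.03 over the 14712 genes whose mean reached 1 CPM. For T11640 over T11035 the medians were 2.95, 1.31 and 1.47, against 1.03.

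Within the precursors the ratio of T9232 to T11035 ran from 1.34 (*Lce1k*) to 18.0 (*Lor*). In 14 precursors the highest tumor exceeded the lowest by at least 4-fold, and no member of another class had such a spread. Their T11035 fragments ran from 3 for *Lce1i* and *Lce1l*, 5 for *Sprr3* and 6 for *Lor* to 191 for *Sprr1a*. The spread of the genes with few fragments is thus uncertain in size. *Sprr2k* and *Sprr2b*, at 1.36-fold and 1.89-fold, were the steadiest *Sprr2* genes. With 1 library per tumor these differences have no replicate and were not tested. T11035 was also the lowest tumor in most genes of some other lists. These were 18 of 24 genes of envelope assembly (sums of 2331, 5863 and 6296 CPM in T11035, T11640 and T9232), 7 of 7 S100 partners (1103, 1399 and 1499 CPM) and 7 of 7 macrophage markers (1071, 2265 and 2176 CPM). In further lists it was not, being the lowest in 8 of 20 transcription factors of epidermal differentiation, 3 of 8 luminal and 3 of 8 neutrophil genes. Among inner root sheath keratins it was the lowest in 1 of 6, and among adipocyte markers in 1 of 8. The part of macrophages or other cell types in the difference between tumors was not tested. T11035 had the shallowest tumor library (5116883 fragments), and the part of depth in its lower levels was not tested.

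**Figure D3:**
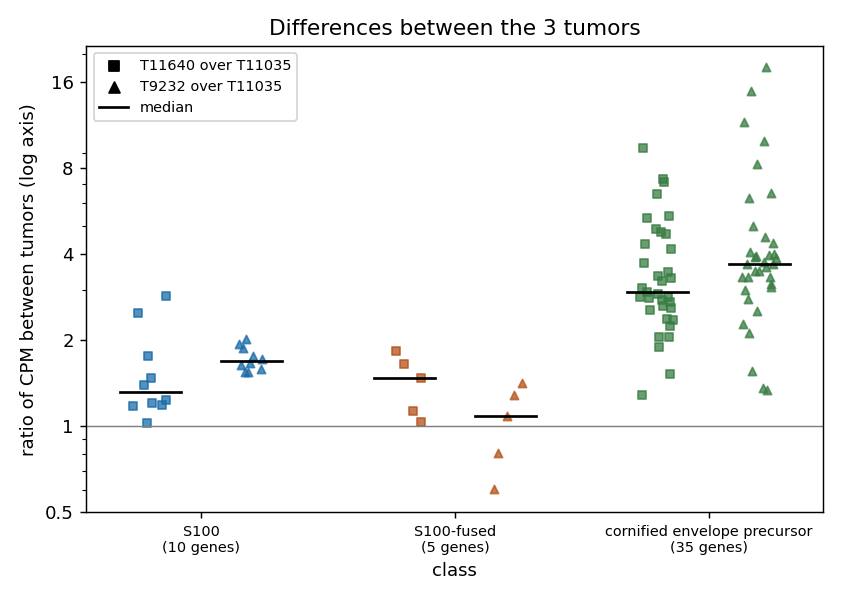
Ratio of CPM in T11640 (squares) and T9232 (triangles) to that in T11035 for each gene of the 3 classes (log axis), with the median of each set as a black line. The precursors have medians of 2.95 and 3.69 and reach 18.0, while the S100-fused genes have medians of 1.47 and 1.09 and fall on both sides of 1.

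Other genes of the table that lie among the members were higher in the tumors too. From the first to the last member, the cluster covers chromosome 3 from 90314956 to 93368565 (mm9, 3054 kb). Of the genes in the table, 7 others besides *S100a8* and *S100a9* lie in this interval, and all 7 were upregulated, with log2 fold changes from 1.79 (*Gm4858*) to 7.69 (*Kprp*). Each of the 7 had at most 2 fragments in the glands together. They were in the table only through their tumor fragments and could hardly come out lower. *Kprp*, a keratinocyte proline-rich gene, had no fragment in any gland and 35.7, 183 and 163 CPM in T11035, T11640 and T9232, at least 830-fold higher (adjusted p = 1.99e-05). *Tchhl1*, a relative of trichohyalin, was at 62.0, 119 and 58.9 CPM in the tumors and at 0.20, 0 and 0.14 CPM in the glands. *Pglyrp4*, a paralog of *Pglyrp3*, was at 25.1, 44.3 and 43.6 CPM in the tumors and had 1 fragment in the glands together. *S100a8* and *S100a9*, which neutrophils and stressed keratinocytes both make, had log2 fold changes of 4.34 and 4.26.

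Outside the cluster the direction was mixed. Of the 5 nearest table genes before *S100a1*, chosen after the values were seen, none was upregulated and *Npr1* was downregulated (log2 fold change -1.82). Of 4 nearby genes after *S100a10*, *Them5* was upregulated (6.11), *Tdrkh* (-2.17) and *Oaz3* (-1.52) were downregulated and *Them4* (-0.01) was not called. Within the cluster *Hrnr*, *Rptn* and *Tchh*, with log2 fold changes of 9.10, 9.19 and 8.37, are adjacent members. The 4 members nearest to its ends were *S100a1*, *S100a13*, *S100a10* and *S100a11*, which were the 2 lower genes, the uncalled higher gene and a gene with a log2 fold change of 1.38.

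**Figure D4:**
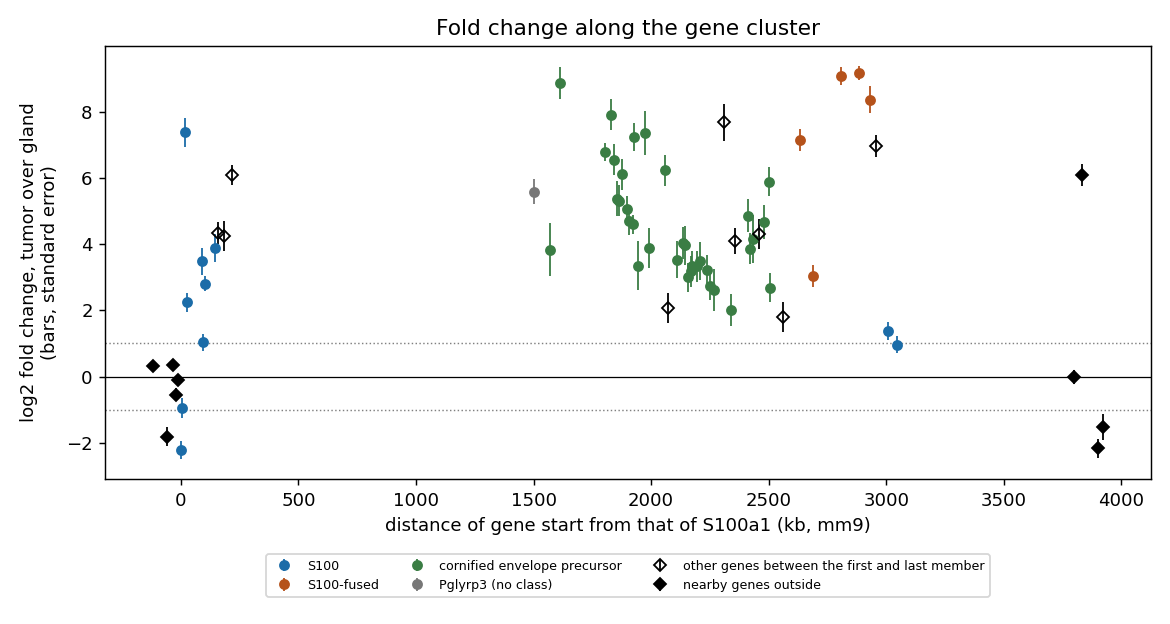
Log2 fold change of tumor over gland (points, bars are standard errors) against the distance of each gene start from that of *S100a1* in kb (mm9), for 50 members colored by class, the 9 other table genes between them (open diamonds) and 9 nearby table genes outside, 5 before and 4 after (filled diamonds). Dotted lines mark a log2 fold change of 1 in either direction, and within the cluster *S100a1*, *S100a13* and *S100a10*, at its ends, are the genes below the upper line.

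The upstream sequences of the members were compared because ATF3 is a bZIP protein, a family whose dimers bind AP-1 and CRE motifs. The AP-1 motif was searched as TGANTCA, a wider pattern than TGACTCA or TGAGTCA, and the CRE motif as TGACGTCA. A TATA motif (TATAAA) was searched as well. RefSeq promoters (GRCm38.p6) were found for 44 of the 51 members, in 48 windows of 250 bases before the gene start, and both strands were read. TGANTCA occurred in 17 of the 48 windows (35.4%), against 6.71% of the 32803 windows of other genes. By class it occurred in 9 of 11 *Sprr* windows, 3 of 5 S100-fused windows, 2 of 12 S100 windows and 0 of 17 *Lce* windows. TATAAA occurred in 43.8% of the member windows and in 12.3% of the others. On the strand of the gene and 25 to 35 bases before the start, it was in 18 of the 48 member windows (37.5%), 9 of them *Sprr* and 3 S100-fused, against 1.70% of the others. TGACGTCA was in none of the 48 windows and in 1.55% of the others. The *Sprr2* promoters descend from one another and are not independent, and a match of letters is not a binding site.

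The following sequences hold the 200 bases before the start, written in the direction of the gene with TATAAA and TGANTCA matches in capitals. They are shown for the precursor with the highest tumor level, for *Ivl*, for the most abundant *Sprr2* gene, for the member with the largest fitted change, for an *Lce1* gene that rose without either match and for the gene that fell.
Prr9 (GRCm38.p6, chr3:92123948-92124147, minus strand): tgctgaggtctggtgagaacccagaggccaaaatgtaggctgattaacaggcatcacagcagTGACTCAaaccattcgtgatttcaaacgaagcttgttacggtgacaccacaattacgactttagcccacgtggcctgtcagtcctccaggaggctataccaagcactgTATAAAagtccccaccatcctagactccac
Ivl (GRCm38.p6, chr3:92573736-92573935, minus strand): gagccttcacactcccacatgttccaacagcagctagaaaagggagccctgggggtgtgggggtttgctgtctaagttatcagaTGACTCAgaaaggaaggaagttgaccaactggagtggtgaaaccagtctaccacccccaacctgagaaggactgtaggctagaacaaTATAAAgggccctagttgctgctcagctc
Sprr2d (GRCm38.p6, chr3:92338940-92339139, plus strand): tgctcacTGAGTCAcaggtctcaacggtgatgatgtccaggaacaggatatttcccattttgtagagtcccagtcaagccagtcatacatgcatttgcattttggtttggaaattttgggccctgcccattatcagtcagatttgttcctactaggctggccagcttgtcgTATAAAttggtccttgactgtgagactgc
Rptn (GRCm38.p6, chr3:93393499-93393698, plus strand): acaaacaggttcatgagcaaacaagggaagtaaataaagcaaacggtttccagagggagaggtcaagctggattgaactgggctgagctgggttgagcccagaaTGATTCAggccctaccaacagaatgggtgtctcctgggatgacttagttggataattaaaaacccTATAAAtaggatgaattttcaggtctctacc
Lce1b (GRCm38.p6, chr3:92656927-92657126, minus strand): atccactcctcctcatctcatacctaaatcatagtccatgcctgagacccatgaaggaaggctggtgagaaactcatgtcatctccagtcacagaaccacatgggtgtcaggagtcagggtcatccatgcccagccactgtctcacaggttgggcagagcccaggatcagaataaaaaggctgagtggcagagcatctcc
S100a1 (GRCm38.p6, chr3:90514331-90514530, minus strand): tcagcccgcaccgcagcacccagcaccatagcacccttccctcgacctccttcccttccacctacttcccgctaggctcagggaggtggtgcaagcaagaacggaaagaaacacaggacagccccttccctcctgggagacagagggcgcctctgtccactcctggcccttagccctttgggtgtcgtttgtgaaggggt

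In the first 4 of these the TATAAA match starts 29 to 31 bases before the gene start. The TGANTCA match starts 138 bases before the start in *Prr9*, 116 in *Ivl*, 193 in *Sprr2d* and 96 in *Rptn*, so its place was not shared between families. Within the *Sprr2* genes it was shared, at 193 to 198 bases before the start in each of the 7 that were matched, with a further match at 182 in *Sprr2k*. The *Lce1b* and *S100a1* sequences hold neither motif, though *Lce1b* rose and *S100a1* fell.

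**Figure D5:**
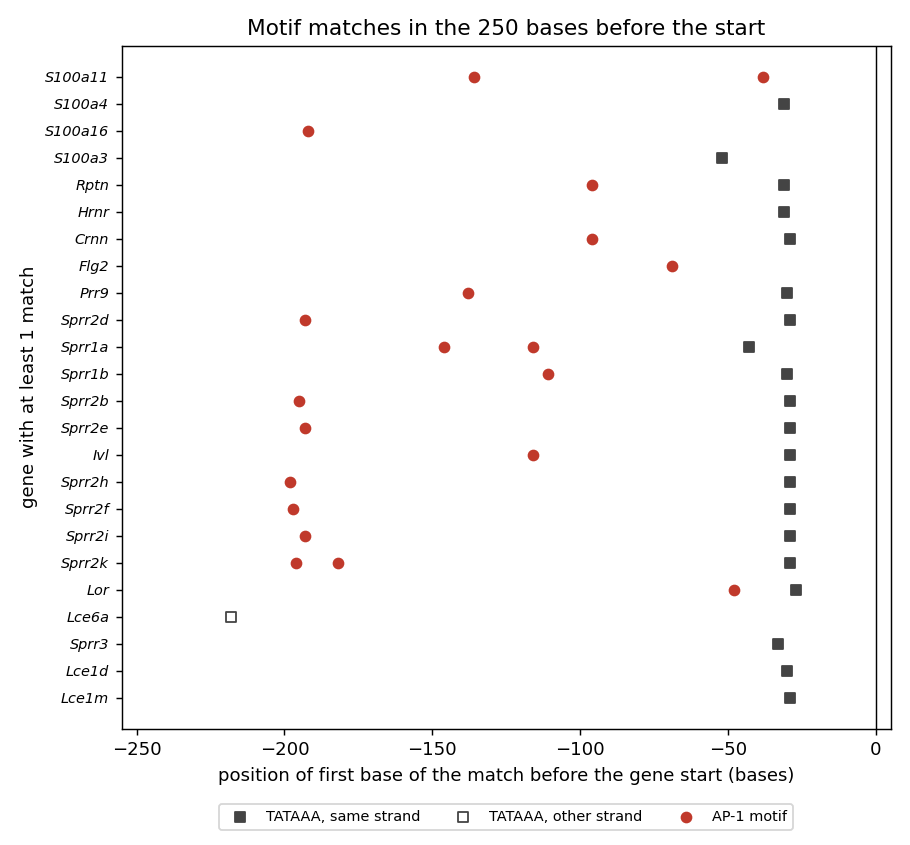
Position of TATAAA (squares, open for the other strand) and AP-1 motif (circles, searched as TGANTCA) matches in the 250 bases before the gene start (horizontal axis, in bases) for the members with at least 1 match (vertical axis, by class and tumor level). The TATAAA matches of the *Sprr* and S100-fused genes line up near the start, and the AP-1 matches of the 7 *Sprr2* genes line up at 193 to 198 bases, where *Sprr2k* has a further match at 182.

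Most genes that assemble the envelope were higher in the tumors too. Of 24 genes of envelope assembly and processing outside the EDC, 23 were upregulated and none was downregulated, against 14.5% and 13.7% of all genes. The log2 fold changes of the 24 had a median of 5.08 (6.96 with genes of few gland fragments at their bound or pooled ratio). The transglutaminases that form the cross-links were among them: *Tgm3* was at 0.20, 0.17 and 0.41 CPM in M11035, M11640 and M9232 and at 108, 161 and 92.8 CPM in T11035, T11640 and T9232 (log2 fold change 7.29 ± 0.27), *Tgm1* changed by 3.06 ± 0.24 and *Tgm5* had a pooled ratio of 99.0-fold. The largest fitted change was that of *Klk7*, a protease of desquamation, at 250, 660 and 1056 CPM in the tumors and at most 1.42 CPM in a gland (8.44 ± 0.46). *Spink5*, its inhibitor, changed by 8.18 ± 0.48 and *Abca12*, the lipid transporter of lamellar granules, by 8.27 ± 0.26. *Casp14* and *Asprv1*, proteases of filaggrin maturation, and *Ppl* and *Evpl*, the plakins on which the envelope is laid, were upregulated too. *Prss8* (0.81, adjusted p = 0.121) was not called. Of the 24 genes, 1 had no fragment in any gland and 7 had between 1 and 3 in all glands together. Genes this low in the glands were in the table only through their tumor fragments and could hardly come out lower.

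Of 20 transcription factors of epidermal differentiation, 13 were upregulated, 1 was downregulated and 6 were not called. *Grhl3*, which drives late differentiation, was at 0.81, 1.16 and 0.68 CPM in the glands and at 63.5, 94.8 and 104 CPM in the tumors (log2 fold change 5.97 ± 0.26, adjusted p = 1.76e-06). *Ovol1* changed by 4.78, *Trp63*, the master regulator of stratified epithelia, by 3.41, *Zfp750* by 3.29 and *Klf4* by 2.62. *Foxn1* had no fragment in any gland and was at least 21.1-fold higher. *Cebpa*, which serves adipocytes as well as keratinocytes, was at 72.2, 88.7 and 57.3 CPM in the glands and at 13.0, 15.5 and 27.0 CPM in the tumors (-1.99 ± 0.28, adjusted p = 7.25e-04). T11035, the tumor with the lowest precursors, had the highest *Trp63* level (467 CPM, against 363 in T11640 and 278 in T9232).

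Of 7 binding partners and receptors of S100 proteins, *Anxa2* (log2 fold change 2.01 ± 0.29, adjusted p = 8.60e-04) and *Anxa1* (1.38 ± 0.30, adjusted p = 0.00672) were upregulated and 5 were not called, the receptor gene *Tlr4* (-0.09, adjusted p = 0.826) among them. The median log2 fold change of the 7 was 0.06, and 14.5% of all genes were upregulated, so the list as a whole did not move. *Anxa2* is the partner of *S100a10*, and it was at 73.8, 141 and 65.7 CPM in the glands and at 274, 386 and 429 CPM in the tumors.

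Markers of the cell types that such tissue could hold were read beside these results. All 10 squamous epidermal keratins were upregulated, from a sum of 9.96 to 11.4 CPM in the glands to 2679 to 4274 CPM in the tumors, with *Krt1* at 401, 562 and 363 CPM and *Krt10* at 648, 1278 and 1065 CPM in T11035, T11640 and T9232. *Krt6b* had the largest fitted log2 fold change of any gene tested (9.52). T11035 was the lowest tumor in 8 of these 10 keratins. All 6 keratins of the hair inner root sheath rose, from 0.547 to 2.24 CPM summed in the glands to 305 to 672 CPM in the tumors. All 6 were highest in T11640 and 5 were lowest in T9232, the order also seen for *Tchh* and *Crnn*. Of 15 hair shaft genes, 14 were upregulated at a sum of 19.0 to 110 CPM in the tumors, and 9 of the 15 were at 0 in all glands. The 3 mucosal squamous keratins were upregulated at a sum of 10.8 to 18.3 CPM in the tumors. In every gland these 3 and all 15 hair shaft genes had at most 3 fragments. The same held for 5 of the 6 inner root sheath keratins and 3 of the 10 squamous epidermal keratins. Genes this low in the glands were in the table only through their tumor fragments and could hardly come out lower. With tumor and gland paired by mouse as a block, 2 of the 3 mucosal keratins were called. *Krt13*, with 18 fragments in the 3 tumors together, was then at an adjusted p of 0.0675. Its call was also lost when any single library other than T11035 was left out (adjusted p from 0.0642 to 0.106). Without T11035 the call was kept (adjusted p = 0.0180). With a pseudocount of 1 the log2 fold change of *Krt13* was 0.85, under the fold threshold.

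Other lists did not move as a block, and their counts stand beside 14.5% of all genes upregulated and 13.7% downregulated. Of 7 sebaceous gland genes listed, 5 were in the table, of which 1 was upregulated (*Fabp5*) and 3 were downregulated. Of 6 melanocyte genes listed, only 2 were in the table, and none was called. The mammary luminal list had 4 up and 3 down of 8, and the basal and myoepithelial list 3 up and 3 down of 8, with *Krt5* (5.48), *Krt14* (5.75) and *Trp63* (3.41) higher and the contractile genes *Myh11* (-2.69) and *Mylk* (-1.79) lower. Luminal *Krt8* (11.4 to 26.5 CPM in the glands, 38.3 to 77.6 CPM in the tumors) and *Epcam* were present in every library. The 3 luminal genes that were lower were *Prlr* (-3.11), *Elf5* (-2.59) and *Foxa1* (-1.54). Of 8 neutrophil genes 4 were up and 2 down, with the granule genes *Mpo* and *Ngp* lower, of 7 macrophage genes 1 was down, and of 7 fibroblast genes 4 were up. The part of skin or hair follicle tissue in the levels of the EDC genes was not tested.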

How the data were processed

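RNA-Seq was performed on total RNA of 3 mammary tumors and the 3 matched glands (Ovation RNA-Seq System V2, paired-end reads). The authors mapped reads to mm9 with TopHat2 2.0.3, counted fragments on RefSeq genes with HTSeq 0.5.3p9 and removed genes with few fragments, as their methods and processing notes state. They deposited a normalized expression signal, CPM on the effective library size of edgeR 3.6.1. Strand use in counting is not given in the sources used here. All values (100%) in the 6 libraries came out as whole numbers of fragments (tolerance 1e-06), so fragments were recovered, and 3 fragments equal 0.393 to 0.610 CPM. The design assumed CPM. Because columns sum to unequal totals, the unit was recorded as signal, with the same test. The table held 0 columns of other samples.

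Tumors were compared with glands by limma 3.58.1 in R 4.3.3 (two-sided, mean-variance trend, log2(CPM + 0.5), Benjamini-Hochberg over 15280 genes, no mouse term). A single gene tested by exact permutation of 3 against 3 libraries cannot go below p = 0.1. Tumor and gland of the same number come from the same mouse, which pairs them, and their deviations from the group means correlated with r = 0.107, 0.151 and 0.0168 over 14712 genes. Alternatives were a pseudocount of 0.1 or 1, a mean of at least 1 CPM, a mouse block, plain totals, edgeR 4.0.16 and DESeq2 1.42.0 on recovered fragments, no fold threshold, and each library left out. On recovered fragments edgeR called 2238 genes up and 2224 down. The scripts were tested on simulated data. Libraries of a tissue were not copies of each other.

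Named genes are, in each class, the 4 members with the highest tumor mean and the 3 with the largest change, every member that was downregulated or uncalled at 10 CPM or more, *Pglyrp3*, and called genes or extremes of the lists. Other members named were chosen after their values were seen. Members and gene lists were chosen with earlier results of these data known. Positions and transcript lengths came from GENCODE vM1 (mm9), which placed 50 of the 51 members, and promoters from RefSeq (GRCm38.p6). The authors' miRNA, RT-qPCR and human data were not used here. A gene beside the cluster is not reported here.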

Additional observations from a re-analysis of the deposited data

How the results depend on the processing

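Of the 51 members, 48 kept their call under every alternative that tested them, and none reversed. With the replicate block for the mouse, 48 members were upregulated and 1 downregulated, as without it, and the pairing changed no member's call. The number of upregulated members was 48 with edgeR, with DESeq2, with either pseudocount and with plain totals, 49 without the fold threshold and 46 at a mean of at least 1 CPM, where *Lce1k* and *Lce1l* were not tested. It ranged from 47 to 49 when a library was left out. The number of downregulated members, all of them S100 genes, was 2 in place of 1 with a pseudocount of 0.1 and without the fold threshold, and 1 to 2 when a library was left out, the added gene being *S100a13*. The 3 members whose call changed were *S100a4*, *S100a10* and *S100a13*, all close to the fold threshold. The summed tumor level ranged from 4685 to 6162 CPM without 1 tumor. With no fragments in most glands, depth limits how large the change of a precursor can be shown to be. Its direction was largely set by the removal of genes with few fragments. The median log2 fold change of all genes was -0.00 on the deposited scale and -0.02 on plain totals.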

Other observations

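The S100 genes of the table that lie outside the cluster were read as well, after their values were seen. *S100b*, which marks adipocytes and glia, was at 16.1, 9.25 and 3.69 CPM in M11035, M11640 and M9232 and at 2.23, 1.44 and 0.45 CPM in T11035, T11640 and T9232, and fell by 2.36 on the log2 scale (adjusted p = 0.00942). *S100g* was at 1.63, 0.99 and 1.23 CPM in the glands and at 0.74, 0.66 and 1.50 CPM in the tumors (log2 fold change -0.31, adjusted p = 0.528), and its groups overlapped.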
